A study of Mus musculus with 8 samples.

Results

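The keratins of stratified epithelia were followed in RNA-seq libraries from the growing end of the mouse incisor. The set was chosen by name and holds 8 of the 51 keratin genes, and of the 23358 genes in all, in the deposited table. It comprises the basal keratins *Krt5*, *Krt14* and *Krt15*, the suprabasal keratins *Krt1* and *Krt10*, and the stress keratins *Krt6a*, *Krt16* and *Krt17*. All 8 were tested, because each reached 1 RPKM (the read count divided by gene length and library depth) in 2 libraries or more out of 8.

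The tissues were the head (CLH) and the tail (CLT) of the cervical loop of 4-week-old C57BL/6 mice, the first holding the dental epithelial stem cells and the second their progenies. In the cKO mice, the *Krt14* promoter drives Cre recombinase, which excises exons 8 to 10 of *Med1*, so deletion is limited to cells with a *Krt14* history and other cells of the dissected tissue keep *Med1*. The Ctrl mice were littermates without Cre, tissues of several mice were pooled, and each of the 4 groups had 2 libraries, called replicates 1 and 2. *Krt14* is thus both a gene measured here and the source of the promoter that drives the transgene. *Med1* encodes a subunit of Mediator, the complex that links transcription factors at enhancers to RNA polymerase.

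Keratins build the intermediate filaments of epithelial cells, and each filament pairs a type I keratin with a type II keratin. KRT5 (type II) and KRT14 (type I) form the network of dividing basal cells, and KRT15 is a further type I keratin of basal cells and of the hair follicle bulge. Cells that leave the basal layer of skin switch to KRT1 (type II) and KRT10 (type I). KRT6A (type II), KRT16 and KRT17 (type I) are low in resting epidermis, are induced by wounding, and are made constitutively in hair follicles, oral mucosa and other appendages. The dental epithelium is an ectodermal epithelium that expresses *Krt5* and *Krt14*, but enamel is normally formed without a cornified layer.

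Depth was similar in all libraries, with totals of 26591613 to 34420180 reads recovered from the table. The Ctrl CLT libraries stood apart from each other: their median absolute log2 difference over the tested genes was 0.404, against 0.092 to 0.113 in the other 3 groups. Hair keratin markers (7 genes) summed to 3099 RPKM in Ctrl CLT 1 and 10.1 for Ctrl CLT 2, against 9079 and 9961 for cKO CLT and 5.41 to 7.04 in CLH. The markers of ameloblasts, the enamel-forming cells (7 genes), summed to 84584 and 37392 RPKM in Ctrl CLT and 12504 to 14318 in CLH. In cKO CLT the same sum was 19.7 and 15.8 RPKM. The dental epithelial transcription factor *Isl1* was at 21.9 and 21.3 RPKM for Ctrl CLT and at 0.734 and 0.479 RPKM for cKO CLT, so that these markers of the labelled tissue were near 0 there. The general epithelial genes *Epcam* (84.2 and 78.1 RPKM) and *Cdh1* (109 and 110 RPKM) were present in cKO CLT. The targeted gene, *Med1*, was measured over all its exons, of which most lie outside the deletion. Its level was 7.71 and 9.12 RPKM in Ctrl CLH and 7.10 and 7.03 for cKO CLH, against 4.83 and 8.71 for Ctrl CLT and 9.15 and 8.96 for cKO CLT. No *Med1* difference passed between cKO and Ctrl (adjusted p = 0.71 in CLH and 0.36 in CLT, limma), and in CLT its level was higher in the libraries labelled cKO. Group names below are those of the labels.

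All 8 genes lie on the minus strand, the type II genes on chromosome 15 and the type I genes on chromosome 11 (mm10). In the table's coordinates, *Krt5* spans chr15:101707070-101712891, *Krt6a* chr15:101689928-101694305 and *Krt1* chr15:101845426-101850786. *Krt10* spans chr11:99385256-99389364, *Krt15* chr11:100131759-100135949, *Krt14* chr11:100203162-100207510, *Krt16* chr11:100246091-100248902 and *Krt17* chr11:100256217-100260989. Neighbouring genes of each cluster are similar enough in sequence to share reads, which bears on how far the values of *Krt6a* and *Krt16* can be trusted. Of all 50-base words in the transcript of *Krt6a*, 57.5% also occurred in another gene, mostly in *Krt6b*. The same share was 37.6% for *Krt16*, with the gene model *Gm11597* and with *Krt14*. It was 14.4% for *Krt14*, 12.2% for *Krt5*, 3.99% for *Krt17*, 2.44% for *Krt10* (an antisense model, *Gm11940*), 0.666% for *Krt15* and 0% for *Krt1*.

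The longest identical coding stretches (GENCODE M21 transcripts, coding strand, 5′ to 3′) are shown for *Krt14* with *Krt16* and *Krt6a* with *Krt6b*. A read that lies wholly within such a stretch cannot be placed on 1 gene by its own sequence. Other stretches are shared too, such as 71 bases between *Krt14* and *Krt17*. *Krt14* and *Krt16* share 134 bases in the first coding exon, at chr11:100207017-100207150 in *Krt14* and chr11:100248476-100248609 in *Krt16*. *Krt6a* and *Krt6b* share 280 bases in their first coding exons, at chr15:101693936-101694215 and chr15:101679911-101680190.
Krt14 and Krt16: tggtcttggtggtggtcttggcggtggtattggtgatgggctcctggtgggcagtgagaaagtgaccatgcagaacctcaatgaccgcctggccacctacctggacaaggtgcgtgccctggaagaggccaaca
Krt6a and Krt6b: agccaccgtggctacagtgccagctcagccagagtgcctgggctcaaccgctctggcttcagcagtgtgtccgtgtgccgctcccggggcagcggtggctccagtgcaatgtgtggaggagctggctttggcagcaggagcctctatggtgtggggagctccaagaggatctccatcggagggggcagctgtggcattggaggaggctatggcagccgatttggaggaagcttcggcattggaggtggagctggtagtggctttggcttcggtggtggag

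In Ctrl CLH 2, *Krt16* had 3 reads while *Krt14* had 7931. *Krt6b* stood at 0.383 and 0.492 RPKM for cKO CLT, where *Krt6a* stood at 105 and 109. In CLH, *Krt6b* was at 2.62 and 0 RPKM for Ctrl and 3.69 and 2.45 for cKO, where *Krt6a* was at 5.73 and 1.19 and at 9.33 and 5.65. No value is given here for *Gm11597*, and the part of shared reads in any keratin value was not tested. The counting rule for reads that match both genes is not given in the sources used here, and the levels of *Krt6a* and *Krt16* are uncertain for that reason.

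*Krt5* and *Krt14*, the basal pair, were the most abundant of the set in every CLH library. *Krt5* was at 278 and 278 RPKM for Ctrl CLH, 268 and 317 for cKO CLH, 633 and 436 for Ctrl CLT, and 936 and 1079 for cKO CLT. Its 4 CLH libraries overlapped by genotype, every CLT library exceeded every CLH library, and both cKO CLT libraries exceeded both Ctrl CLT libraries. *Krt14*, its type I partner, was at 196 and 178 RPKM for Ctrl CLH, 220 and 242 for cKO CLH, 543 and 275 for Ctrl CLT, and 558 and 649 for cKO CLT. The lower cKO CLT library was thus close to Ctrl CLT 1, and the gap between the Ctrl CLT libraries was larger than the gap from Ctrl CLT 1 to either cKO CLT library. *Krt15* had another pattern, with 11.4 to 13.2 RPKM in all CLH libraries, 146 and 15.7 for Ctrl CLT, and 322 and 353 for cKO CLT. Ctrl CLT 2 was near the CLH level and Ctrl CLT 1 was 9.29 times as high as Ctrl CLT 2.

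The suprabasal keratins were low in CLH and in Ctrl CLT 2. *Krt1* was at 0.641 and 0.456 RPKM for Ctrl CLH, 1.05 and 0.788 for cKO CLH, 19.9 and 0.292 for Ctrl CLT, and 66.6 and 63.2 for cKO CLT. In reads, *Krt1* had 54 and 30 for Ctrl CLH, 87 and 57 for cKO CLH, 19 for Ctrl CLT 2, and 4570 and 4220 for cKO CLT, so the ratios against the lowest libraries rest on few reads. *Krt10* was at 7.18 and 4.09 RPKM for Ctrl CLH, 11.1 and 6.78 for cKO CLH, 138 and 2.84 for Ctrl CLT, and 409 and 419 for cKO CLT. For both genes Ctrl CLT 2 was the lowest of the 8 libraries, and cKO CLT was the highest group with no overlap. The cKO CLT mean was 222 times the value of Ctrl CLT 2 for *Krt1* and 146 times for *Krt10*, but 3.26 and 2.996 times the value of Ctrl CLT 1.

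Among the stress keratins, *Krt17* was the highest in every library. It stood between *Krt14* and *Krt15* in CLH and Ctrl CLT, and reached the level of *Krt5* in cKO CLT. Its RPKM was 135 and 130 for Ctrl CLH, 150 and 171 for cKO CLH, 433 and 88.6 for Ctrl CLT, and 946 and 1113 for cKO CLT. Ctrl CLT 2 was the lowest library and the cKO CLT libraries were the highest. *Krt6a* was at 5.73 and 1.19 RPKM for Ctrl CLH, 9.33 and 5.65 for cKO CLH, 39.0 and 5.46 for Ctrl CLT, and 105 and 109 for cKO CLT. *Krt16*, which pairs with KRT6A in stressed epithelia, was at 4.25 and 0.0713 RPKM for Ctrl CLH, 6.81 and 5.23 for cKO CLH, 10.9 and 0.817 for Ctrl CLT, and 22.9 and 24.5 for cKO CLT. For *Krt6a* and *Krt16* the lowest library was Ctrl CLH 2, not a CLT library. Of the 5 oral mucosa and tongue keratins listed, *Krt13*, *Krt4* and *Krt76* moved with them in CLH. *Krt13* was at 21.8 and 0.0566 RPKM in Ctrl CLH and 42.5 and 24.4 for cKO CLH, and *Krt4* at 6.07 and 0.262 and at 12.3 and 7.11. *Krt76* was at 1.42 and 0.145 and at 1.73 and 1.54. *Krt36* was at 0.246 to 0.436 RPKM there, and *Krt84* at 0.0692 to 0.237 RPKM, lowest in cKO CLH 1. In cKO CLT, where *Krt6a* and *Krt16* were highest, *Krt13* was at 0.407 and 0.251 RPKM and *Krt4* at 0.736 and 0.928. The part of oral epithelium in the CLH values of *Krt6a* and *Krt16* was not tested.

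**Figure D1:**
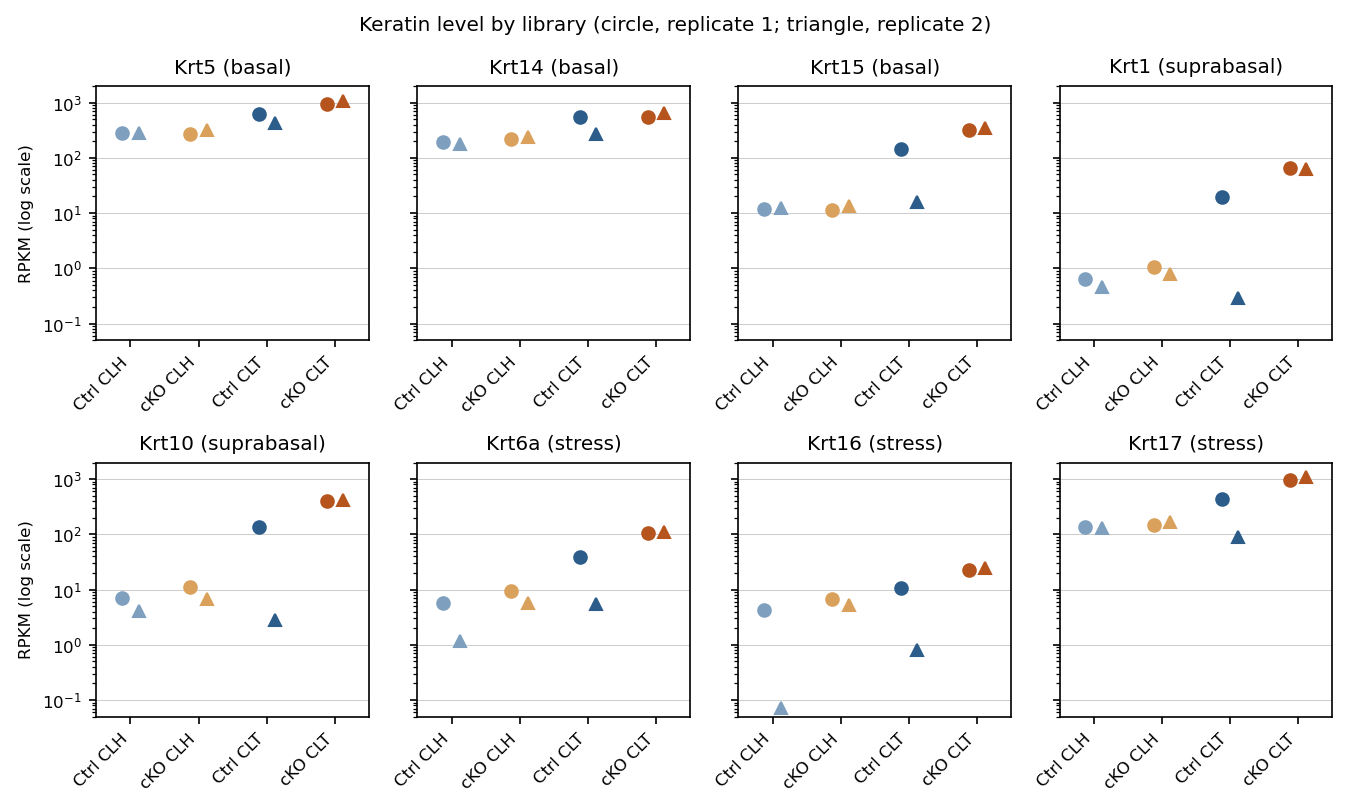
RPKM of each of the 8 keratins (vertical axis, log scale) in the 4 groups (horizontal axis), with a circle for replicate 1 and a triangle for replicate 2. Every keratin was highest in cKO CLT, and the Ctrl CLT libraries lay far apart for all but *Krt5* and *Krt14*.

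The first comparison asked whether loss of *Med1* changed these keratins in CLT, the tissue of the stem cell progenies. All 8 keratins were higher in both cKO CLT libraries than in both Ctrl CLT libraries, and 37.2% of the 14148 genes tested showed this. Their median log2 fold change, on the log2(RPKM + 1) scale used throughout, was 2.58, against -0.01 over all genes. None passed the adjusted threshold of 0.05 in limma (0 of 8, with 0.0777% of all genes called higher). Unadjusted, 3 had a p under 0.05 in limma, against 2802 higher and 2314 lower of the 14148 genes tested. Voom on the recovered reads also called 0, with 4 under 0.05 unadjusted. The largest log2 differences were those of the suprabasal pair, 4.17 ± 1.83 (SE, n = 2 against 2, adjusted p = 0.18) for *Krt10* and 3.66 ± 1.42 (adjusted p = 0.15) for *Krt1*. *Krt15* differed by 2.77 ± 1.11 (adjusted p = 0.16). The stress keratins were close to each other, at 2.75 ± 0.93 for *Krt6a*, 2.41 ± 0.96 for *Krt16* and 2.38 ± 0.82 for *Krt17*, with adjusted p of 0.13, 0.16 and 0.13. The basal pair differed least, by 0.93 ± 0.26 for *Krt5* (adjusted p = 0.099) and 0.64 ± 0.38 for *Krt14* (adjusted p = 0.29).

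The size of each difference in CLT depended on which Ctrl CLT library was used. Without Ctrl CLT 1, the log2 fold changes of the 8 keratins ran from 1.12 (*Krt14*) to 6.76 (*Krt10*). Without Ctrl CLT 2 they ran from 0.67 (*Krt5*) to 1.65 (*Krt1*) for 7 keratins, with 0.15 for *Krt14*. With a lone Ctrl library the spread comes from the cKO libraries. On the RPKM scale, Ctrl CLT 1 lay 30.4% (*Krt1*) to 43.9% (*Krt16*) of the way from Ctrl CLT 2 to the cKO CLT mean for 7 keratins, and 81.5% of the way for *Krt14*. The 7 hair keratin markers lay 30.6% to 34.8% of the way and the 5 melanocyte markers 24.0% to 33.6%. Skeletal muscle markers (5 genes) summed to 638 and 48.0 RPKM for Ctrl CLT, 1745 and 1921 for cKO CLT and 26.1 to 30.4 in CLH. These markers thus moved with the keratins across the CLT libraries, and their part in the keratin values was not tested. In bulk tissue, fewer cells of a type and less RNA per cell cannot be told apart.

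**Figure D2:**
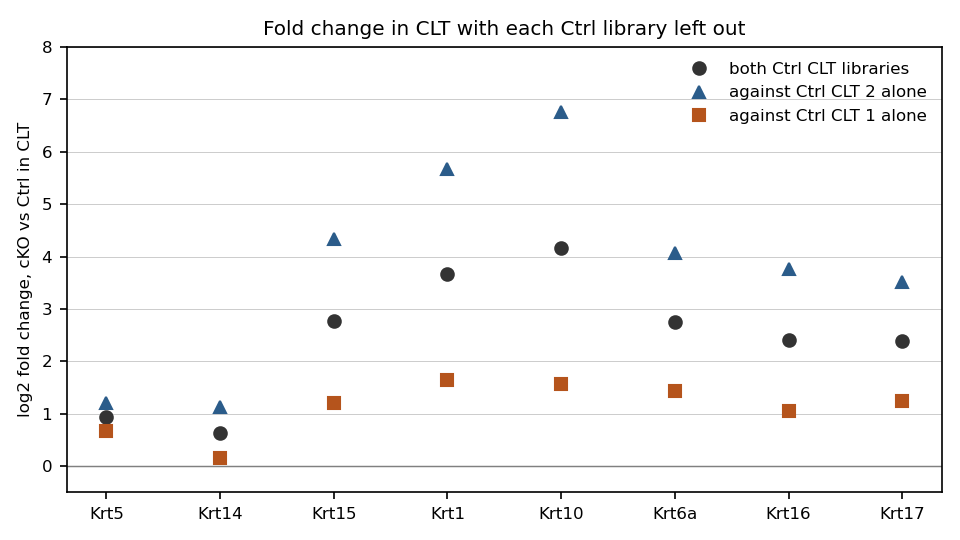
Log2 fold change between cKO and Ctrl in CLT (vertical axis) for each keratin, with both Ctrl libraries (circles), against Ctrl CLT 2 alone (triangles) and against Ctrl CLT 1 alone (squares). All values are above 0, and the suprabasal keratins span the widest range, from 1.58 to 6.76 for *Krt10*.

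In CLH, the tissue of the stem cells, the same comparison gave log2 differences from 0.01 for *Krt15* to 1.56 for *Krt16*. No keratin passed the threshold (0 of 8 in limma and by voom, with 0% of all genes called higher), while 3 had an unadjusted p under 0.05 in limma and 5 by voom. Over all genes, an unadjusted p under 0.05 was reached by 684 that were higher and 343 that were lower in cKO (limma). The keratins' median log2 fold change was 0.31, against -0.01 over all genes, and 4 of 8 did not overlap and were higher in cKO, against 19.9% of all genes. These 4 were *Krt14* at 0.31 ± 0.09, *Krt17* at 0.27 ± 0.08, *Krt1* at 0.31 ± 0.10 and *Krt16* at 1.56 ± 0.77, with adjusted p of 0.69, 0.69, 0.69 and 0.71. For *Krt5* the difference was 0.07, with a 95% interval of -0.20 to 0.34, and for *Krt15* it was 0.01, with an interval of -0.24 to 0.26. The intervals of *Krt10* (-0.26 to 1.44) and *Krt6a* (-0.43 to 2.65) were wider, and their groups overlapped. Leaving out Ctrl CLH 2, the library with 3 *Krt16* reads, lowered the *Krt16* difference to 0.41.

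From CLH to CLT in the cKO mice, all 8 keratins rose. Each was called higher in CLT by limma, as were 28.9% of all genes, and none of the 8 overlapped, against 34.5% of all genes higher without overlap. The log2 fold changes were largest for *Krt10* (5.42 ± 0.18), *Krt1* (5.10 ± 0.10) and *Krt15* (4.67 ± 0.10), followed by *Krt6a* (3.71 ± 0.18) and *Krt17* (2.67 ± 0.12). They were smallest for *Krt16* (1.82 ± 0.12), *Krt5* (1.78 ± 0.12) and *Krt14* (1.38 ± 0.11). Adjusted p ranged from 2.1e-09 for *Krt1* to 7.8e-06 for *Krt14*. As ratios of group means, *Krt1* was 70.5 times, *Krt10* 46.3 times and *Krt15* 27.4 times higher in CLT, against 3.45 times for *Krt5* and 2.61 times for *Krt14*. The median log2 fold change of all genes was -0.18, and it became 0.01 after median-of-ratios scaling, under which all 8 keratins were again called. The split of all calls moved with that scaling, from 4084 higher and 6384 lower to 5233 higher and 4928 lower. Both cKO CLT libraries were also those with hair markers at 9079 and 9961 RPKM and ameloblast markers under 20 RPKM, whose part in these differences was not tested.

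From CLH to CLT in the Ctrl mice, no keratin passed (0 of 8 in limma and by voom), with 0.00707% of all genes called higher. Unadjusted, 2 were under 0.05 in limma and 1 by voom. Over all genes, 587 that were higher and 1273 that were lower in CLT were under 0.05 unadjusted (limma). The keratins with no overlap were the basal ones, *Krt5* (0.92 ± 0.22), *Krt14* (1.05 ± 0.37) and *Krt15* (1.92 ± 1.12), 3 of 8 against 15.2% of all genes. Adjusted p was 0.33, 0.38 and 0.49. The other 5 overlapped, with Ctrl CLT 2 below at least 1 of the Ctrl CLH libraries. Without Ctrl CLT 1 the differences were negative for *Krt10* (-0.75), *Krt17* (-0.58), *Krt16* (-0.38) and *Krt1* (-0.26). Without Ctrl CLT 2 they were positive for all 8. *Krt1*, *Krt10*, *Krt16* and *Krt17* thus had no single direction between head and tail of the Ctrl mice. The *Krt6a* difference stayed positive, at 0.75 without Ctrl CLT 1 and 3.38 without Ctrl CLT 2. Its level in Ctrl CLT 2 (5.46 RPKM) was nevertheless below that in Ctrl CLH 1 (5.73 RPKM). *Krt5*, *Krt14* and *Krt15* were higher in each Ctrl CLT library than in each Ctrl CLH library.

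An interaction term, fitted over all libraries, compared the effect of cKO in CLT with its effect in CLH. It was positive for all 8 keratins, with a median of 1.88 against -0.01 over all genes, but none passed (0 of 8 in limma and by voom, 1 under 0.05 unadjusted in each), against 8.05% of all genes called larger in CLT. *Krt5* came nearest, at 0.87 ± 0.28 (adjusted p = 0.074). The other values ran from 0.33 ± 0.42 for *Krt14* to 3.58 ± 2.11 for *Krt10*. Over all genes, 2880 with a larger and 2495 with a smaller effect in CLT were under 0.05 unadjusted (limma). Without Ctrl CLT 1 the median of the keratins was 3.10, and without Ctrl CLT 2 it was 0.79.

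**Figure D3:**
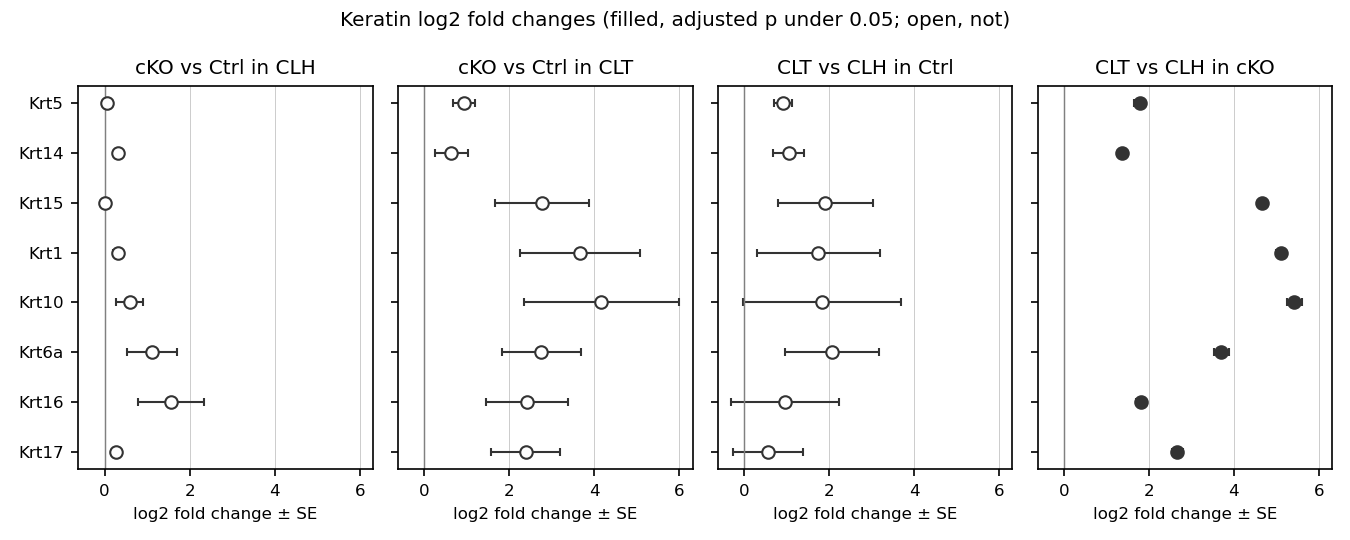
Log2 fold change with its standard error (horizontal axis) of the 8 keratins in 4 comparisons of 2 against 2 libraries, filled where the adjusted p was under 0.05. Only the comparison of CLT with CLH in cKO has filled points, and its error bars are narrow.

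The order of the keratins by RPKM, which is per length and so can be compared between genes, was the same at the top in CLH and in Ctrl CLT. *Krt5* came first in each of these 6 libraries, followed by *Krt14*, *Krt17* and *Krt15* in that order. In cKO CLT, *Krt17* came first in both libraries, but its range (946 to 1113 RPKM) overlapped that of *Krt5* (936 to 1079 RPKM), so these neighbours did not differ beyond their spread. *Krt14* followed, then *Krt10* at 409 and 419 RPKM and *Krt15* at 322 and 353 RPKM. *Krt10* thus stood above *Krt15* in both cKO CLT libraries and below it in the other 6. *Krt16* was the last in both cKO CLT libraries, Ctrl CLT 1 and Ctrl CLH 2, and *Krt1* was the last in the other 4.

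The sum of the 8 keratins was 604 to 762 RPKM in CLH, 1963 and 825 for Ctrl CLT, and 3365 and 3811 for cKO CLT. The basal keratins made up 73.7% to 77.5% of this sum in CLH and 67.4% and 88.1% for Ctrl CLT, but 53.9% and 54.6% for cKO CLT. The suprabasal share was 0.752% to 1.80% in CLH, 8.06% and 0.380% for Ctrl CLT, and 14.1% and 12.7% for cKO CLT. The stress share was 21.8% to 24.5% in CLH, 24.6% and 11.5% for Ctrl CLT, and 31.9% and 32.7% for cKO CLT. Both cKO CLT libraries were outside the range of the other 6 in all 3 shares. Among all 51 keratin genes, the 8 held 84.0% to 89.1% of the RPKM in CLH and 93.5% in Ctrl CLT 2, but 29.6% in Ctrl CLT 1 and 19.9% and 20.6% for cKO CLT. Their own sum was highest in cKO CLT, so the lower share came with a larger sum of all keratin genes there, 16900 and 18542 RPKM against 678 to 883 in CLH and Ctrl CLT 2.

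**Figure D4:**
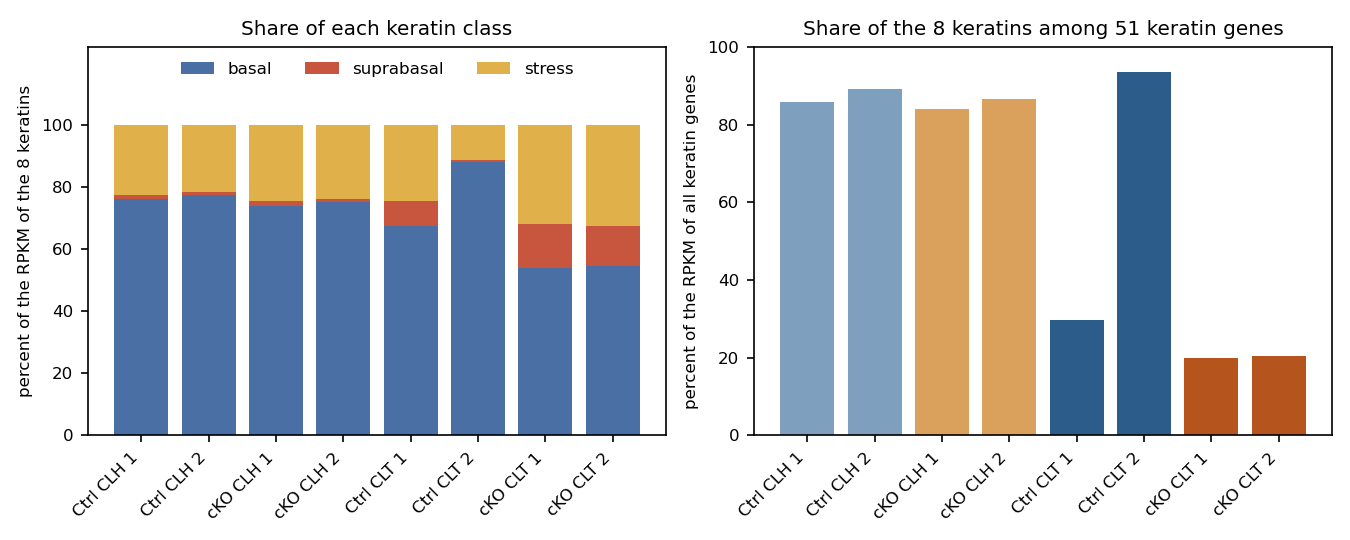
Left, percent of the summed RPKM of the 8 keratins held by the basal, suprabasal and stress keratins in each library. Right, percent of the RPKM of all 51 keratin genes held by the 8, which was 84.0% to 93.5% in the CLH libraries and Ctrl CLT 2 and 29.6% or less in Ctrl CLT 1 and cKO CLT.

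Since a type I keratin pairs with a type II keratin, the ratio of partners was followed in each library. *Krt14* to *Krt5* stayed between 0.596 and 0.857. It was 0.706 and 0.639 for Ctrl CLH, 0.823 and 0.765 for cKO CLH, 0.857 and 0.631 for Ctrl CLT, and 0.596 and 0.601 for cKO CLT, the lowest of the 8. *Krt10* to *Krt1* stayed between 6.14 and 11.2, although *Krt1* itself ranged from 0.292 to 66.6 RPKM. *Krt10* was higher than *Krt1* in every library, and the ratio was lowest in the libraries with most of both, 6.14 and 6.63 for cKO CLT and 6.94 for Ctrl CLT 1. *Krt16* to *Krt6a* was the most variable. It was 0.731 to 0.926 in CLH except for Ctrl CLH 2, where it was 0.0601, and 0.150 to 0.279 in CLT. *Krt6a* rose more than *Krt16* from CLH to CLT in cKO, by 3.71 against 1.82 on the log2 scale, and that difference between genes was not tested. *Krt17* was 8.99 and 10.2 times *Krt6a* in cKO CLT and 16.1 to 110 times in the CLH libraries.

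**Figure D5:**
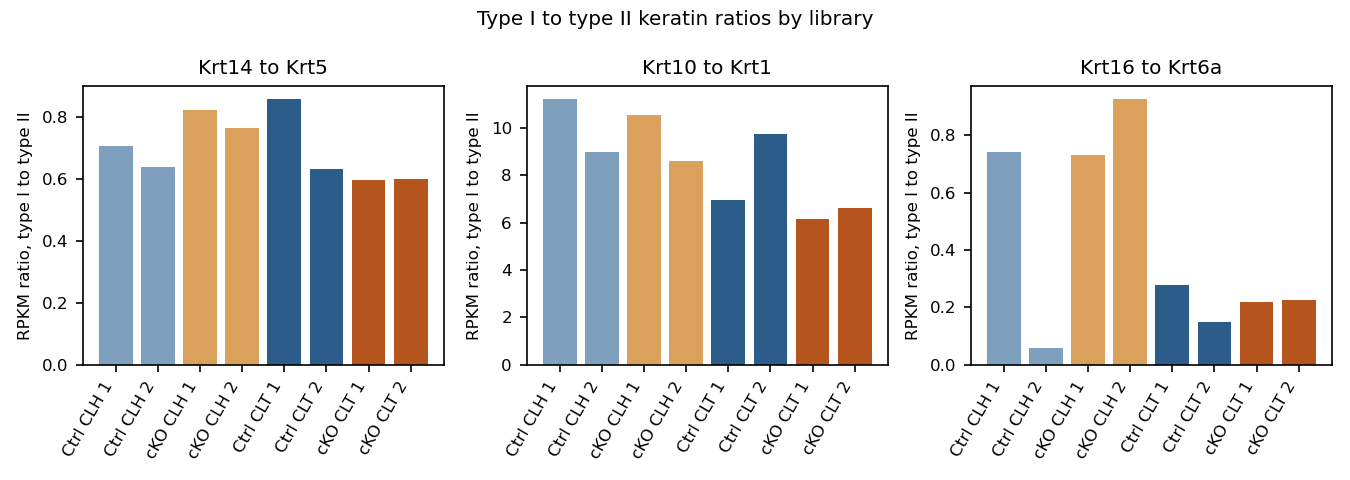
Ratio of type I to type II keratin RPKM (vertical axis, from 0) in each library for *Krt14* to *Krt5*, *Krt10* to *Krt1* and *Krt16* to *Krt6a*. The first 2 pairs vary less than 2-fold over the libraries, while *Krt16* to *Krt6a* is 0.150 to 0.279 in CLT and, outside Ctrl CLH 2, 0.731 to 0.926 in CLH.

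Genes that work with these keratins were then counted by role, from lists written with earlier results of these data known. Some of the basal adhesion genes (10) encode parts of hemidesmosomes, which anchor KRT5 and KRT14 filaments to the basement membrane. In CLT, 4 of 10 fell in cKO and 0 rose (7 under 0.05 unadjusted, both directions), and their median log2 fold change was -1.13, while 1.68% of all genes were called lower. By voom, without a filter, and without either cKO CLT library, 0 of 10 were called. *Lamb3*, a laminin chain of the basement membrane, fell by 3.75 on the log2 scale (adjusted p = 0.049, and 0.067 by voom). It was at 211 and 96.1 RPKM in Ctrl CLT and 9.15 and 10.3 for cKO CLT. Of the 10, 2 had a positive log2 fold change. In the cKO tissues, 7 of 10 fell from CLH to CLT, *Lamb3* by 2.56, and 1, the integrin *Itga3*, rose by 0.43. Over all genes, 45.1% were called lower and 28.9% higher in that comparison. The interaction called 6 of 10 smaller in CLT and 0 larger, against 9.58% and 8.05% of all genes. That count of 6 was 5 by voom and 4 with a replicate block or without a filter. *Lamb3* was among the 6 (-4.31 ± 0.51, adjusted p = 0.0070, limma).

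The spinous and granular layer genes (12 of 14 tested, without *Flg* and *Krt2*) build the layers where KRT1 and KRT10 are found. In CLT, 0 of 12 were called between cKO and Ctrl in limma or by voom. Unadjusted, 4 were under 0.05 in limma, against 2802 higher and 2314 lower of the 14148 genes tested. All 12 were higher without overlap, against 37.2% of all genes, with a median of 3.71. *Krt77*, a further type II keratin, was at 107 and 0.131 RPKM in Ctrl CLT and 340 and 364 for cKO CLT, a log2 difference of 4.996 ± 2.32. *Krtdap*, which encodes a secreted protein of differentiating keratinocytes, differed by 4.80 ± 2.40 (150 and 0.330 against 399 and 388 RPKM). All 12 rose from CLH to CLT in cKO, against 28.9% of all genes called higher. They were led by *Krt77* (8.26) and *Ivl* (7.23), the latter encoding involucrin of the cornified envelope. In the interaction, 1 of 12 was called, the desmosomal cadherin *Dsg1b* (1.25 ± 0.33, adjusted p = 0.048), a share near the 8.05% of all genes called larger in CLT. The *Dsg1b* call was kept in 2 of 13 alternatives.

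Plakins and desmosomal plaque proteins (9 genes) tie keratin filaments to cell junctions. In CLT, 0 of 9 were called between cKO and Ctrl in limma or by voom (7 under 0.05 unadjusted in limma). All 9 were higher without overlap, against 37.2% of all genes, and the median was 1.98. Periplakin (*Ppl*) differed by 2.96 ± 1.04 and plakophilin 3 (*Pkp3*) by 2.52 ± 0.98, with adjusted p of 0.13 and 0.15. *Ppl* was at 37.3 and 3.97 RPKM in Ctrl CLT and 102 and 111 for cKO CLT, and *Pkp3* at 76.0 and 10.5 and at 156 and 185. Of the 9, 8 rose from CLH to CLT in cKO, against 28.9% of all genes called higher. *Ppl* rose by 3.76 and *Pkp3* by 3.54. The interaction called 1 of 9, *Pkp2* (1.45 ± 0.34, adjusted p = 0.037), against 8.05% of all genes, and 0 of 9 by voom, with a replicate block and without a filter.

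Genes of the stressed keratinocyte (12 of 17 tested, without *Cxcl1*, *Defb4*, *Il36a*, *Serpinb3a* and *Sprr2d*) were counted next. In CLT, 0 of 12 were called between cKO and Ctrl in limma or by voom, and the median was 0.22. Unadjusted, 4 in either direction were under 0.05 in limma, against 2802 higher and 2314 lower of the 14148 genes tested. The cornified envelope precursors *Sprr1a* and *Sprr1b* differed by 5.68 ± 2.96 and 3.53 ± 1.34 (adjusted p = 0.24 and 0.15), and *Sprr1a* was at 407 and 0.190 RPKM in Ctrl CLT and 1047 and 1219 for cKO CLT. From CLH to CLT in cKO, 6 of 12 rose and 6 fell, against 28.9% and 45.1% of all genes. *Sprr1a* rose by 9.13 and *Sprr1b* by 5.03, while *S100a9*, an antimicrobial calcium-binding protein of keratinocytes and neutrophils, fell by 3.36 and *Lcn2* (lipocalin 2) fell by 2.45. The leukocyte markers (4 genes) summed to 132 to 141 RPKM in CLH, 103 and 140 for Ctrl CLT, and 84.3 and 79.6 for cKO CLT. *S100a9* was at 143 to 172 RPKM in CLH and 115 and 28.9 for Ctrl CLT. *Lcn2* was at 10.5 to 16.5 RPKM in CLH and 9.10 and 3.35 for Ctrl CLT. The part of leukocytes in the *S100a9* and *Lcn2* values was not tested. The interaction called 2 of 12 larger in CLT (0 by voom), against 8.05% of all genes in limma. The 2 were *Il1a* (interleukin 1 alpha, 1.63 ± 0.32) and *Ereg* (epiregulin, 1.63 ± 0.36), both under 4 RPKM in every library. It called 1 of 12 smaller (also 1 by voom), against 9.58% of all genes in limma. That 1 was *Nfe2l2* (-0.63 ± 0.12), which encodes the oxidative stress factor NRF2.

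Transcription factors and receptors known to act on keratin genes (22 of 23 tested, without *Fosl1*) were counted last. In CLT, 1 of 22 rose in cKO and 0 fell (17 under 0.05 unadjusted, both directions), 20 were higher without overlap, and the median was 1.65. Over all genes, 0.0777% were called higher and 37.2% were higher without overlap. The gene that passed was *Tfap2a*, which encodes AP-2 alpha, an activator of *Krt5* and *Krt14*. It was at 9.18 and 7.26 RPKM in Ctrl CLT and 28.4 and 26.0 for cKO CLT, a log2 fold change of 1.62 ± 0.18 (adjusted p = 0.049). That call was lost by voom (adjusted p = 0.067), with a pseudocount of 0.1 (0.0503), without a filter (0.098), with median-of-ratios scaling (0.052) and without either cKO CLT library (0.44 and 0.46). From CLH to CLT in cKO, 20 of 22 rose, against 28.9% of all genes called higher. They were led by *Grhl1* (6.26) and *Gata3* (5.26), factors of epidermal differentiation and of hair follicle and epidermis. The interaction called 6 of 22 larger in CLT, against 8.05% of all genes, and 6 by voom, but 0 without Ctrl CLH 2, without either cKO CLH library or without either cKO CLT library. The largest were *Tfap2a* (1.67 ± 0.22, adjusted p = 0.0093) and *Notch1* (1.66 ± 0.37, adjusted p = 0.033), the receptor that acts in spinous cells and in the stratum intermedium of the tooth. In CLH between cKO and Ctrl, and in Ctrl between CLT and CLH, 0 genes of all 5 lists passed in limma or by voom, with 1 to 4 and 0 to 3 per list under 0.05 unadjusted in limma.

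The genes with the most similar levels over the 8 libraries were searched among 6702 genes with a mean of at least 10 RPKM, by Pearson's r of log2(RPKM + 1). The points share libraries, and 3 of the 8 carry most of the range. *Krt1* was most like *Spink5* (r = 0.9996) and *Tgm3* (0.999), the first encoding a protease inhibitor and the other a transglutaminase of the cornifying epidermis. *Krt14* was most like *Stxbp2* (0.995), *Ppp1r13b* (0.993) and *Mif4gd* (0.991). For *Krt6a* the nearest genes were *Ndel1* (0.992), *Spint1* (0.984) and *Tuba8* (0.981), and for *Krt17* *Ppp1r13l* (0.999), *Mgst3* (0.999) and *H2-D1* (0.998). Within the set, the suprabasal partners *Krt1* and *Krt10* had r = 0.995 and the basal partners *Krt5* and *Krt14* had r = 0.970, while *Krt16* had at most 0.925 with any other member, its value with *Krt6a*.

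Since all 8 keratins rose together from CLH to CLT in cKO, the bases upstream of their starts are shown where a RefSeq sequence (GRCm38.p6) was at hand and its start lay near the table's gene end. This held for *Krt5*, within 14 bases, and *Krt10*, without a difference. The 250 bases before the start lie at chr15:101712906-101713155 and chr11:99389365-99389614, and are printed on the minus strand, 5′ to 3′, with the motif match in capitals.
Krt5: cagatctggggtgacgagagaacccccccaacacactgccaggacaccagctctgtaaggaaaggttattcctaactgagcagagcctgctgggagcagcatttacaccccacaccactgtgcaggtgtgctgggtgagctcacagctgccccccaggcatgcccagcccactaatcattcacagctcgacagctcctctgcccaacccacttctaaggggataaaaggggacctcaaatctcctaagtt
Krt10: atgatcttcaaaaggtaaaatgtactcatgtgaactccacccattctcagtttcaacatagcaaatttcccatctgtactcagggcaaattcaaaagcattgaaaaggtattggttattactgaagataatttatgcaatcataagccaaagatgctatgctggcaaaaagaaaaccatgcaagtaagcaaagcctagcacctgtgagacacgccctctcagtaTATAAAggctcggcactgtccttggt
On both strands, 4 motifs were searched, none of them overlapping another in these windows. The TATA box was searched as TATAAA and the AP-1 site, where FOS and JUN proteins bind, as TGANTCA. The GC box of SP1-type factors was searched as GGGCGG, and the AP-2 site as GCCNNNGGC. The only match was the TATA box of *Krt10*, at bases 26 to 21 before the start. Of 32851 mouse promoters of the same length, 12.4% held the TATA box letters, 6.75% those of the AP-1 site, 32.7% those of the GC box and 13.7% those of the AP-2 site. A missing match says only that these letters are not in the window shown.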

How the data were processed

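RNA from CLH and CLT tissue of *Med1* cKO and Ctrl mice was sequenced in 2 libraries per group, which the study calls biological duplicates; p-values measure the spread between these libraries. Per the labels and the study's methods, the authors checked reads with FastQC 0.72, aligned them to mm10 with STAR 2.6.0b-1 and counted them with featureCounts 1.6.3. The deposited table gives RPKM for 23358 genes with a gene length. The annotation, the strand setting and the counting of reads that match several genes are not given in the sources used here. RPKM multiplied by length fell on whole reads (tolerance 0.02) for 100% of the values checked, which gave library totals of 26591613 to 34420180. Values of 3 reads or fewer are at the counting floor, which covers counting error only.

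From the deposited RPKM, log2(RPKM + 1) was tested with limma 3.58.1 (lmFit, eBayes with trend) in R 4.3.3, over the 14148 genes that reached an RPKM of 1 in 2 or more libraries. Tests were two-sided, p-values were adjusted by Benjamini-Hochberg, and the threshold was 0.05. Fold changes on this scale understate those of low genes. Each comparison used its own 4 libraries, and the interaction all 8. Alternatives were a pseudocount of 0.1, no filter, all 8 libraries in 1 fit, a replicate block, median-of-ratios scaling, voom on the recovered reads, and each library left out. The scripts were tested on simulated data.

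The members and gene lists were chosen with earlier results of these data known. The text names the 8 keratins, *Med1*, per list and comparison up to 2 genes with the largest rise and 2 with the largest fall among those past the threshold (in CLT the 2 largest differences where none passed), and the 3 genes most like *Krt14*, *Krt1*, *Krt6a* and *Krt17*; a few items named by these rules are not reported here. Shared words and coding stretches come from GENCODE M21. 0 columns of per-sample values were unused. Gene names on more than 1 row (26) were not used by name.

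Marker lists not given with the results are summarised here in summed RPKM. Odontoblast and bone genes (5) were at 2086 to 3062 in CLH and Ctrl CLT and at 377 and 472 for cKO CLT. Almost all of the cKO CLT sum was *Col1a1* (376 and 472). *Dspp* was at 423 to 654 in CLH and Ctrl CLT and at 0.145 and 0.174 for cKO CLT. There *Ibsp* was at 0 and 0, *Bglap* at 0.686 and 0.411 and *Sp7* at 0.187 and 0.241. Mesenchyme genes (5) were at 1484 to 2005 in all libraries, but their members moved apart: *Vim* was at 459 to 528 in CLH, 266 and 508 for Ctrl CLT and 128 and 132 for cKO CLT, *Pdgfra* at 43.2 to 46.3, 13.5 and 38.5, and 6.03 and 5.76, and *Col3a1* at 436 to 476, 527 and 456, and 874 and 979. Endothelial genes (3) were at 37.4 to 52.1 in all libraries. Simple epithelium keratins (4) were at 31.0 to 39.4 in CLH and 17.2 to 22.3 in CLT, and erythroid genes (3 of 5 in the table) at 4.42 to 7.29. Oral mucosa and tongue keratins (5) were at 29.9 and 0.854 for Ctrl CLH, 57.0 and 33.6 for cKO CLH, 31.8 and 3.60 for Ctrl CLT, and 78.4 and 84.2 for cKO CLT, where *Krt36* and *Krt84* made up most of the sum. Melanocyte genes (5) were at 2.78 to 3.16 in CLH, 130 and 8.62 for Ctrl CLT, and 401 and 402 for cKO CLT.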

Additional observations from a re-analysis of the deposited data

Results flagged for a closer look

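For 8 genes of the keratin network named here the cKO effect differed between CLT and CLH in the interaction test of limma over all 8 libraries (log2 scale, CLT minus CLH). It was lower in CLT for *Lamb3* (-4.31) and *Nfe2l2* (-0.63). It was higher for *Tfap2a* (1.67), *Notch1* (1.66), *Il1a* (1.63), *Ereg* (1.63), *Pkp2* (1.45) and *Dsg1b* (1.25). Under 13 alternatives, *Lamb3* passed the threshold in 10, *Tfap2a* in 8, *Nfe2l2* in 7, *Il1a* and *Notch1* in 5, *Pkp2* and *Ereg* in 3 and *Dsg1b* in 2, and the highest adjusted p ranged from 0.053 for *Lamb3* to 0.67 for *Ereg*. All kept their direction. None of the 8 keratins passed this test.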

How the results depend on the processing

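The number of keratins called between cKO and Ctrl in CLT was 0, and became 5 with all 8 libraries in 1 fit and 3 with a replicate block. It also rose when either Ctrl CLT library was left out. Between CLT and CLH in Ctrl it was 0, and rose only without Ctrl CLT 2. In the interaction it was 0, and rose only when either Ctrl CLT library was left out. In CLH it stayed 0, and between CLT and CLH in cKO it was 7 or 8, *Krt16* being lost with all 8 libraries in 1 fit (adjusted p = 0.17). A fit with 1 library in a group assumes that it varies like the others. The study's mice came from 2 litters, but the labels do not say that a replicate number marks a litter. Deviations of same-numbered libraries from the group means correlated at 0.066 between Ctrl and cKO in CLH, -0.19 between them in CLT, 0.20 between CLH and CLT in Ctrl and 0.31 in cKO, so the pairing by replicate number is not settled and the block is given as an alternative.

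Of 424 single-keratin values under alternatives, 370 kept direction and side of the threshold, 40 passed it newly, 1 fell short and 13 changed sign. Those that changed sign are given with the range over libraries left out. In CLH they were *Krt5* (-0.054 without cKO CLH 2, to 0.19) and *Krt15* (-0.088 without cKO CLH 2, -0.00078 without Ctrl CLH 1, to 0.11, and -0.0064 by voom). Between CLT and CLH in Ctrl they were *Krt1* (-0.26 to 3.76), *Krt10* (-0.75 to 4.43), *Krt16* (-0.38 to 2.32) and *Krt17* (-0.58 to 1.70), the low end without Ctrl CLT 1 and the high end without Ctrl CLT 2, and *Krt16* also without Ctrl CLH 2 (-0.18). In the interaction they were *Krt14* (-0.16 to 0.82) and *Krt16* (-0.50 to 2.21), the low end without Ctrl CLT 2 and the high end without Ctrl CLT 1, and *Krt16* also without Ctrl CLH 1 (-0.29) and by voom (-0.018). *Med1* between CLT and CLH in Ctrl ran from -0.69 without Ctrl CLT 2 to 0.048 without Ctrl CLT 1. The causes were not tested.

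Over all genes, 248 were called in CLT, and 52 without a filter, 6183 with all libraries, 1744 with the block, 0 by voom and 11 to 9838 with 1 library left out. In Ctrl, 1 was called, and 2 with a pseudocount of 0.1, 0 without a filter, 837 with all libraries, 5 with the block, 0 by voom and 0 to 7537 with 1 left out. The interaction called 2494, 1448 with the block and 198 to 8932 with 1 left out. List counts in CLT moved likewise: spinous and granular genes called were 0, but 12 of 12 without either Ctrl CLT library, 8 with the block and 6 with all libraries. Depth limits *Krt1* and *Krt16* in the libraries with 3 to 54 reads.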

Other observations

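The genes most like *Krt15* over the 8 libraries, named after their values were seen, were *Ptgds* (r = 0.9996), *Myh4* (0.9995), a fast skeletal muscle myosin, and *Krt75* (0.999), a companion layer keratin of the hair follicle. *Krt15* thus ranked nearer to a muscle gene and a hair keratin than to any other basal keratin. Its r was 0.971 with both *Krt5* and *Krt14*. With the suprabasal *Krt1* and *Krt10* it was 0.991 and 0.976, and within the set it was lowest with *Krt16* (0.797). *Myh4* was at 29.0 and 0.413 RPKM in Ctrl CLT, 87.3 and 92.3 for cKO CLT and 0.0628 or less in CLH. *Krt75* was at 127 and 2.84 RPKM in Ctrl CLT, 390 and 429 for cKO CLT and 2.01 to 2.82 in CLH. The r values are descriptions over 8 libraries, of which 3 carry most of the range.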
